A study of Homo sapiens with 4 samples.

Results

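The 9 genes described here are MYC, VEGFA, BCL2, TERT, HIF1A, SRC, HRAS, PDGFA and MYB, oncogenes and cancer-related genes whose promoters hold G-quadruplex (G4) structures that have been studied in the literature. They were chosen by name, and the DNA loops assigned to them are those with at least 1 anchor overlapping the gene body or 10 kb on either side (GENCODE 44, GRCh38). These 9 of 20046 protein-coding genes had 70 of the 66417 loops listed for mock-treated cells and 11 of the 18778 loops listed for PDS-treated cells. POLR2A HiChIP-seq joins proximity ligation in fixed nuclei to immunoprecipitation of POLR2A, the largest subunit of RNA polymerase II (RNAPII), so that each paired-end tag (PET) links DNA fragments that lay close together in chromatin bound by RNAPII. HepG2, an established line from a human hepatocellular carcinoma, was treated for 24 h with sterilized water (mock) or with 20 µM pyridostatin (PDS), a small molecule that binds G4 structures. Both conditions had 2 replicates, but 1 combined list of loops was deposited per condition, so that no spread between replicates could be measured, no test between conditions was possible, and each interval below covers counting error only.

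A G4 forms where several runs of guanines on 1 DNA strand stack into planar tetrads held by Hoogsteen hydrogen bonds. Such sequences are frequent just upstream of transcription start sites, and promoter G4s of MYC, VEGFA, BCL2 and the other genes named here have long served as models for ligands that stabilise them. Active promoters also contact distal regulatory elements and other promoters, and RNAPII is found at both ends of many of these contacts.

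Every one of the 9 genes had at least 1 predicted G4 motif within 1 kb of the start site of its canonical transcript. A predicted motif was defined on the reference sequence as 4 or more G runs, each at least 3 bases long and set 1 to 7 bases apart, on either strand. Of all protein-coding genes, 68.6% had one in the same window, so a motif is a feature of most genes. The median was 2 motifs per gene for the oncogenes and 1 for all protein-coding genes. SRC had 11 motifs in its 2 kb window, a number reached by 0.344% of protein-coding genes, and HRAS had 8, a number reached by 2.14%. PDGFA and MYB had 4 each, and the other 5 genes had 2 each. In a window of 250 bases before to 50 bases after the start site, 7 of the 9 genes kept a motif, the exceptions being MYC and BCL2. The motifs nearest upstream of the start sites of 7 genes are shown here because the genes were chosen for their promoter G4s, and those of MYC, at -308 to -255 bases, and TERT, at -88 to -21 bases, are given by position alone. The sequences are written 5′ to 3′ on their G-rich strand, with runs of at least 3 G in capitals.
VEGFA: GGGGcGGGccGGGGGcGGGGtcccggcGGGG
SRC: GGGGaGGGGaagaggaGGGaGGG
HIF1A: GGGcgcgcGGGGaGGGGagaGGGGGcGGG
MYB: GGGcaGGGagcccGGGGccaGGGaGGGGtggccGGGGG
BCL2: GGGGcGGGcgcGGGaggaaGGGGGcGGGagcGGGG
PDGFA: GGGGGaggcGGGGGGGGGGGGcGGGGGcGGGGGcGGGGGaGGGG
HRAS: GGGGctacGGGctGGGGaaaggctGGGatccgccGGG

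The VEGFA motif lies at chr6:43770123-43770153 on the plus strand (GRCh38), at -88 to -58 bases from the canonical start site, with no base in an annotated untranslated region. The SRC motif lies at chr20:37346048-37346070 on the minus strand, at -92 to -70 bases. The HIF1A motif lies at chr14:61695436-61695464 on the minus strand, at -77 to -49 bases. The MYB motif lies at chr6:135181052-135181089 on the minus strand, at -256 to -219 bases. The BCL2 motif, at chr18:63320118-63320152 on the plus strand, is farther out at -383 to -349 bases, and 11 of its bases fall in the untranslated first exon of another BCL2 transcript. The PDGFA motif, at chr7:519892-519935 on the minus strand and -89 to -46 bases, has the longest G runs of the sequences printed. The HRAS motif lies at chr11:535961-535997 on the plus strand, at -421 to -385 bases.

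The G runs were on the coding strand at 2 of the 9 nearest upstream motifs, those of VEGFA and PDGFA, and on the template strand at the other 7. The nearest upstream motif lay inside an anchor of a listed loop at 7 of the 9 genes, the exceptions being HRAS and PDGFA. Over all 37 motifs within 1 kb of the 9 start sites, 26 lay in such an anchor. The same shares over all protein-coding genes were not computed, so these counts cannot be called particular to the 9 genes. A mock loop at a start site was listed for 59.8% of protein-coding genes. For MYB, a different G4-forming sequence is known from the literature, a tract of GGA repeats. A stretch of at least 4 GGA in a row was found at 4.09% of protein-coding start sites in the same window, and in MYB there were 2 such stretches on the minus strand, at 21 to 32 and 36 to 47 bases downstream of the start. SRC had 2 and PDGFA had 1, and none of these 5 stretches overlapped a motif counted above.

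**Figure D1:**
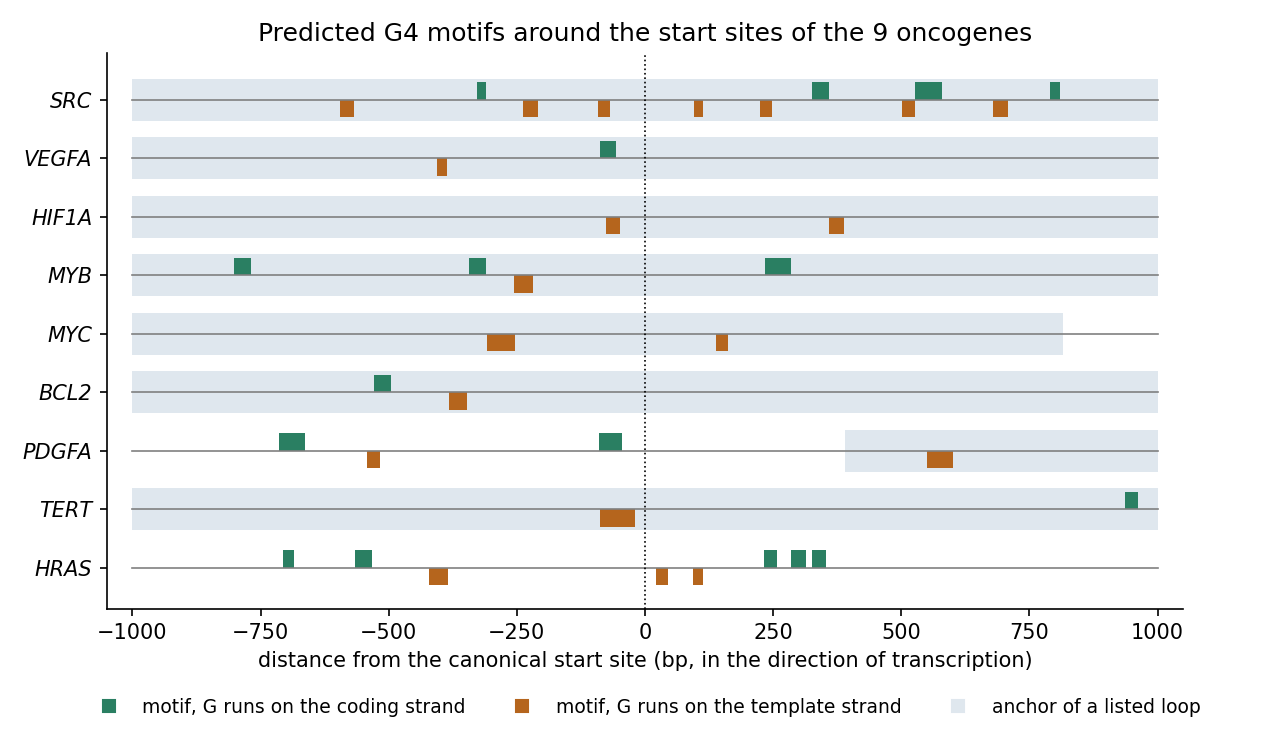
Predicted G4 motifs within 1 kb of the canonical start sites of the 9 oncogenes, with distance from the start site in bp on the horizontal axis and 1 gene per row. Motifs above the line have their G runs on the coding strand and those below on the template strand, and shading marks anchors of listed loops. SRC carries 11 motifs, all inside an anchor, and HRAS carries 8 with no anchor over the window.

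Of the 9 genes, 8 had a loop in the mock list, and 77.3% of all protein-coding genes had one. In the order of their mock loops, SRC had 29 loops (exact 95% Poisson interval 19.4 to 41.6), VEGFA 16 (9.15 to 26.0), HIF1A 8 (3.45 to 15.8), MYB 6 (2.20 to 13.1), MYC 4 (1.09 to 10.2), BCL2 3 (0.619 to 8.77), TERT 2 and PDGFA 2 (0.242 to 7.22 each), and HRAS none. The intervals of neighbours in this order overlap from SRC to VEGFA and at each later step, whereas those of SRC and HIF1A do not. SRC had more mock loops than 98.8% of protein-coding genes and VEGFA more than 95.2%, whereas the median oncogene, with 4, was near the median of 3 of all protein-coding genes. Because the windows differ in length, the number of mock loops per 10 kb of window was also compared. On that scale VEGFA came first with 4.41, followed by SRC with 3.56, MYC with 1.45, HIF1A with 1.10, MYB with 1.04, PDGFA with 0.465, TERT with 0.323 and BCL2, whose gene of 197 kb is the longest of the set, with 0.138.

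In the PDS list, SRC had 7 loops, HIF1A 2, VEGFA 1 and MYB 1, and the other 5 genes had none. All 8 genes with a loop thus had fewer after PDS treatment, and 90.7% of protein-coding genes with a loop in either list did so too. A loss of every loop, at MYC, BCL2, TERT and PDGFA, was the state of 4 of the 8 genes and of 40.3% of protein-coding genes with a mock loop. These 4 genes had only 2 to 4 mock loops each, and for a count of 0 loops the exact Poisson interval reaches 3.69, so that a smaller change could not be told from loss at this depth. The lowest count in either list is 3 PETs, and a loop that is not listed may still have had up to 2.

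**Figure D2:**
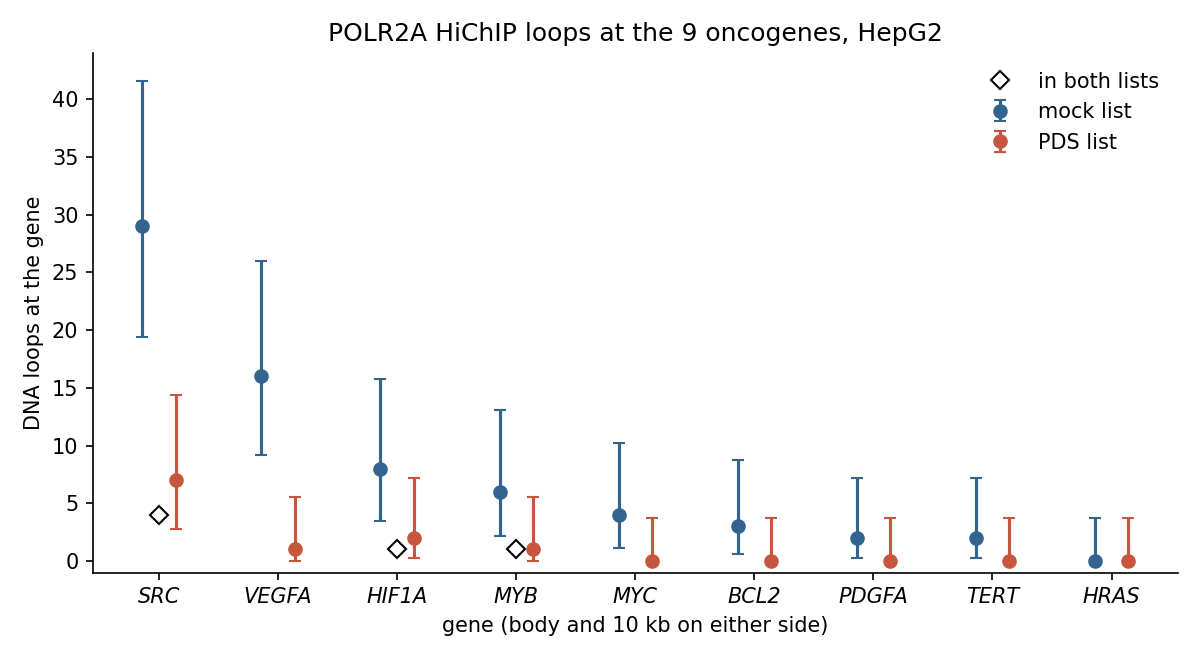
Number of loops with an anchor at each oncogene (gene body and 10 kb on either side) in the mock and PDS lists, with exact 95% Poisson intervals that cover counting error only, and open diamonds for the loops found in both lists. SRC and VEGFA hold 29 and 16 mock loops, and the PDS list holds 7 and 1.

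Added up, the 9 genes had 70 loops in the mock list (292 PETs) and 11 in the PDS list (44 PETs), and no loop belonged to 2 of the genes. The PDS/mock ratio of loop numbers was 0.157 (95% interval 0.0841 to 0.294), beside 0.283 (0.278 to 0.287) for all loops and 0.269 (0.265 to 0.274) for loops at protein-coding genes, and the interval of the oncogenes includes both values. The ratio of PETs was 0.151 (0.110 to 0.207), beside 0.263 for all loops, but PETs of 1 loop are not independent and this interval is too narrow for that reason. SRC alone gave 29 of the 70 mock loops and 7 of the 11 PDS loops. Without SRC the other 8 genes had 41 mock loops and 4 PDS loops, a ratio of 0.0976 (0.0364 to 0.262), and this interval lies narrowly below both values. Without SRC and VEGFA the ratio was 0.120 (0.0385 to 0.374), an interval that includes them. Loops that share an anchor, such as the 12 mock loops of the VEGFA start-site anchor, are not independent. The intervals of loop ratios given here are too narrow for that reason, so the ratio without SRC cannot be called lower than those of all loops.
Loops at start sites (within 1 kb of the start of any annotated transcript) numbered 44 before and 7 after PDS treatment, a ratio of 0.159 (0.0731 to 0.346). The ratio over all protein-coding start sites was 0.254 (0.248 to 0.261), which lies within the interval of the oncogenes. Of the 9 genes, 8 had a mock loop at a start site, and 59.8% of protein-coding genes did. The remaining loops, which touched the genes or their flanks but no start site, numbered 26 and 4, with a ratio of 0.154 (0.0561 to 0.422). Start-site loops and other loops at these genes therefore did not differ beyond counting error.

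Within 1 Mb of the 9 genes, with the loops of the 9 genes themselves left out, the ratio was 0.287 (0.249 to 0.332), from 821 mock loops and 236 PDS loops, which is close to that of all loops. For single neighbourhoods, each without the loops of its own gene, it ran from 0.171 (0.0781 to 0.373) around HIF1A to 0.385 (0.243 to 0.608) around MYB, and these intervals overlap. Loop density also differed between chromosomes, from 0.481 to 89.1 mock loops per Mb with a median of 16.1. SRC lies on chromosome 20, the densest, HIF1A on chromosome 14 with 42.0 loops per Mb, and VEGFA and MYB on chromosome 6 with 36.7, whereas the other 5 genes lie on chromosomes with 9.98 to 16.1. The number of copies of these chromosomes in HepG2 was not measured here, so copies of a gene and loops per copy cannot be told apart.

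**Figure D3:**
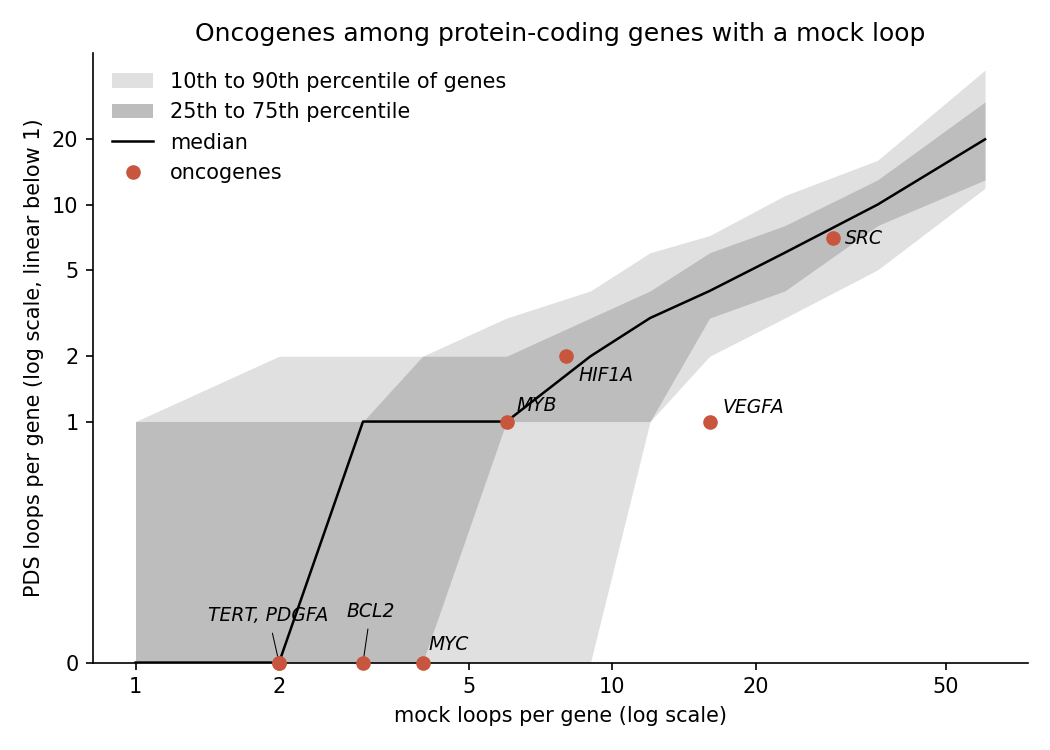
PDS loops against mock loops per gene on log axes (the vertical axis is linear below 1), with the median (line), the 25th to 75th percentile (dark band) and the 10th to 90th percentile (light band) of all protein-coding genes with a mock loop, and the 8 oncogenes with a mock loop as points. VEGFA, at 16 mock loops and 1 PDS loop, lies below the light band, and SRC lies within it. For the other 6 genes, with 2 to 8 mock loops, the lower edge of the band is 0, so that no gene could lie below it there.

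VEGFA encodes vascular endothelial growth factor A, the main ligand that drives the growth of blood vessels. The gene spans 43770184 to 43786487 on chromosome 6. Its canonical start site fell in an anchor 23.4 kb wide, from -12.3 to 11.1 kb, which covers most of the gene and holds 18 predicted G4 motifs. In mock-treated cells this anchor had 12 loops with 51 PETs, of 3 to 6 PETs each. They formed a fan of contacts that reached from -104 to 320 kb.
The loops with most PETs were short, with 6 PETs to an upstream anchor at the start of the lncRNA gene ENSG00000236961 (30.6 kb between midpoints), and 6 PETs to an anchor from 19.0 to 31.5 kb downstream with no annotated gene. An anchor at -104 to -97.2 kb, in MRPS18A and RSPH9, was joined by 4 PETs. On the downstream side the partners included the start of LINC01512 at 115 to 123 kb (3 PETs) and a series of anchors in or near the lncRNA gene SCIRT from 180 to 310 kb (3 or 4 PETs each), 1 of which also holds the start of LINC03040.
None of these 12 loops was in the PDS list. The start-site anchor had 1 loop there, with 3 PETs, to an anchor 369 to 383 kb downstream at the start of TMEM63B, which codes for a membrane channel and which was not joined to this anchor in the mock list. A separate anchor 19.0 to 31.5 kb downstream, just beyond the gene, had 4 mock loops with 18 PETs and no PDS loop. Of these 4 mock loops, 1 with 3 PETs led to another anchor, at 348 to 360 kb, which holds starts of both MRPL14 and TMEM63B. This mock loop and the PDS loop to TMEM63B had no anchor in common, and both had 3 PETs, the lowest count that is listed.

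The 16 mock loops and 1 PDS loop of VEGFA gave a ratio of 0.0625 (0.0106 to 0.370), beside 0.236 (0.173 to 0.321) for other loops within 1 Mb of it, and the intervals overlap. Of 364 protein-coding genes with 15 to 17 mock loops, 9.62% had 1 PDS loop or none, and the median was 4 (quartiles 3 and 5). The low count depended on the window, since with 50 kb on either side VEGFA had 20 mock loops and 5 PDS loops, a ratio of 0.250 (0.0972 to 0.643). None of its 16 mock loops was shared with the PDS list, whereas 2.10 would be shared if each were retained as often as all loops with as many PETs. Its mock loops were long. The median distance between anchor midpoints was 131 kb, beside 17.4 kb for all mock loops, and 10 of the 16 exceeded 100 kb, which is 62.5% (95% Wilson interval 38.6 to 81.5%) beside 12.8% of all mock loops. Of the other oncogenes, HIF1A had 4 of 8 mock loops over 100 kb and SRC 4 of 29.

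**Figure D4:**
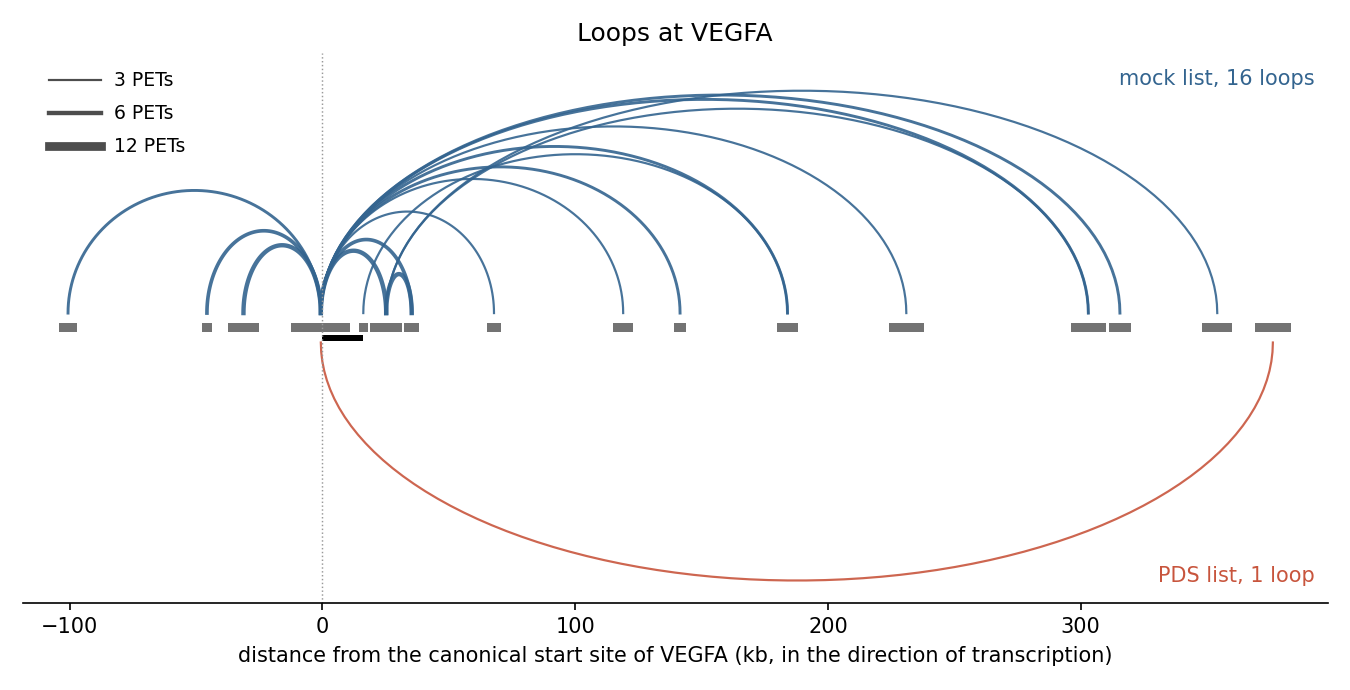
Loops at VEGFA, drawn as arcs between anchor midpoints with distance from the canonical start site in kb on the horizontal axis, mock loops above and PDS loops below, with line width proportional to PETs, grey boxes for anchors and a black bar for the gene. The height of an arc follows the square root of its length. Of 16 mock loops, 12 start from the anchor over the start site, and the 1 PDS loop joins that anchor to one at TMEM63B.

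SRC encodes a non-receptor tyrosine kinase, the cellular counterpart of the Rous sarcoma virus oncogene. The gene spans 37344685 to 37406050 on chromosome 20, with its canonical start at 37346140. The anchor over the canonical start, from -4.03 to 4.77 kb, had 18 G4 motifs and 7 of the 29 mock loops, with 43 PETs. Of these, 1 led to an intronic anchor, 5 to anchors upstream and 1 to an anchor at 186 to 192 kb. The other mock loops came from anchors elsewhere in the gene and its flanks.
The strongest mock loop, with 15 PETs, joined this anchor to the next one upstream, from -10.5 to -4.70 kb, and was not in the PDS list. Of all 23 mock loops with exactly 15 PETs, 17 were also in the PDS list (73.9%, 53.5 to 87.5%). Of all 79 mock loops with at least 15 PETs, 9 were absent from it (11.4%). Another strong loop, from the start-site anchor to the intronic anchor at 6.62 to 22.5 kb, had 12 PETs in mock-treated cells and 4 after PDS treatment.
The loop between that intronic anchor and the next, at 23.4 to 28.2 kb, had 10 PETs without and 9 PETs with PDS treatment. Its downstream anchor has no predicted G4 motif, and the upstream one has 16. A loop over the 3′ end, from 57.3 to 64.1 kb to 64.8 to 80.5 kb, went from 9 to 3 PETs, and one between intronic anchors at 6.62 to 22.5 kb and 29.0 to 41.9 kb from 5 to 4 PETs. The last of these anchors holds an alternative start site of SRC.

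The PDS list also held 3 SRC loops that the mock list did not. The start-site anchor was joined to the alternative start at 29.0 to 41.9 kb by 5 PETs, the highest count of any PDS-only loop of the 9 genes. The intronic anchor at 6.62 to 22.5 kb was joined to a region at -71.5 to -67.9 kb by 4 PETs, and the anchor at -10.5 to -4.70 kb to one at -104 to -93.3 kb by 3 PETs. The mock list held single long loops of 3 PETs from SRC to anchors with the start sites of MANBAL, a neighbouring upstream gene, and of BLCAP, a neighbouring downstream gene that encodes an apoptosis-related protein. None of the 3 loops to MANBAL or BLCAP was in the PDS list.
The ratio of loop numbers at SRC was 0.241 (0.108 to 0.539), beside 0.347 (0.272 to 0.442) for other loops within 1 Mb of it. Of 58 protein-coding genes with 28 to 30 mock loops, 41.4% had 7 or fewer PDS loops, and the median was 8. SRC was thus near the middle of genes with as many loops.

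**Figure D5:**
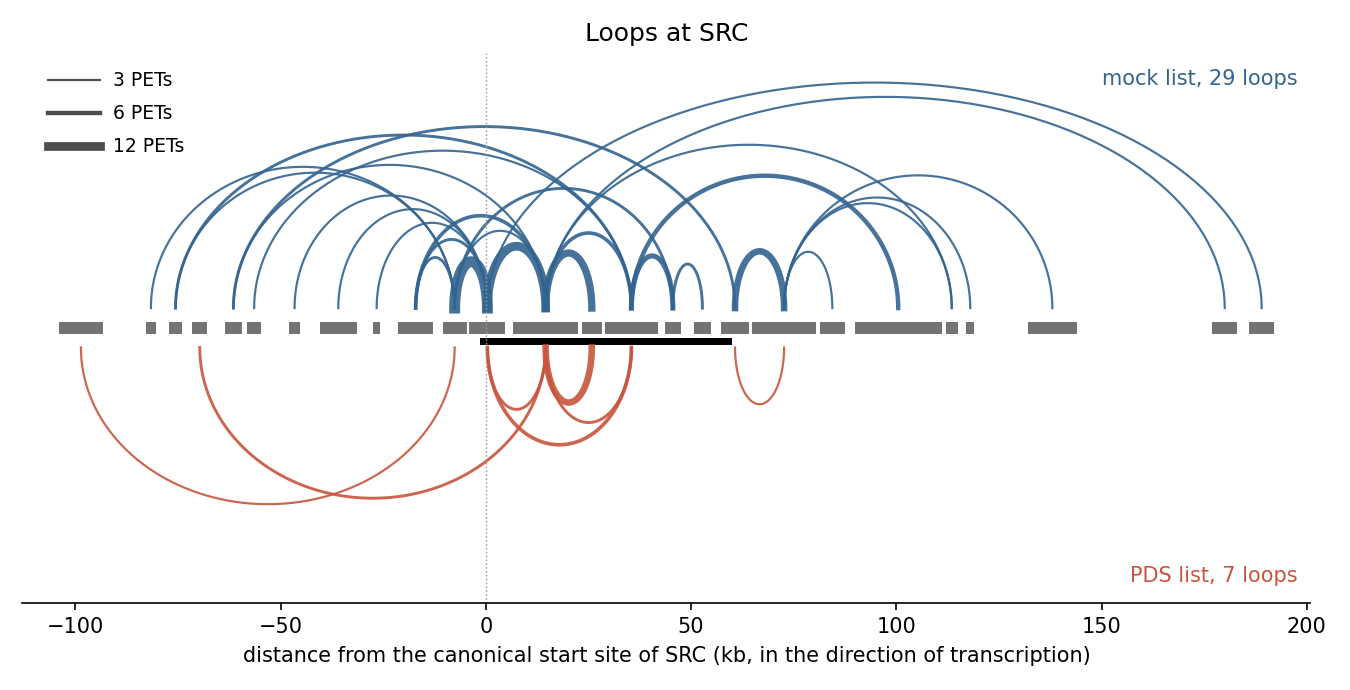
Loops at SRC drawn as arcs, with distance from the canonical start site in kb on the horizontal axis, mock loops above and PDS loops below, line width proportional to PETs, grey boxes for anchors and a black bar for the gene (arc height follows the square root of the length). Of the 29 mock loops and 7 PDS loops, 4 are in both lists, all of them between the start-site anchor and 80.5 kb, and the thick mock arc of 15 PETs just upstream of the start has no counterpart below.

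HIF1A encodes the oxygen-regulated subunit of hypoxia-inducible factor 1, which activates VEGFA among many targets. It had 8 loops (28 PETs) in the mock list and 2 (6 PETs) in the PDS list, a ratio of 0.250 (0.0601 to 1.04). An anchor over intronic sequence at 14.1 to 24.9 kb downstream of the start had 5 mock loops with 16 PETs and no PDS loop. It was joined to the start-site anchor by 4 PETs, to the 3′ part of the gene by 3, to HIF1A-AS1 by 3, and to a pair of anchors in the upstream lncRNA gene LINC03033 by 3 PETs each. The start-site anchor was also joined by 3 PETs to the start of PRKCH, a protein kinase C gene 219 kb away, in the mock list alone. In both lists was the loop from the 3′ part of HIF1A to the start of SNAPC1, a subunit of the small nuclear RNA activating complex, with 5 PETs in mock-treated cells and 3 after PDS treatment. The PDS-only loop, with 3 PETs, joined that 3′ anchor to LINC03033. In the mock list the same 3′ anchor was joined to another anchor in LINC03033 by 4 PETs.

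MYB encodes a transcription factor of blood progenitor cells. It had 6 loops (20 PETs) in the mock list and 1 (3 PETs) in the PDS list. Its start-site anchor, 20.0 kb wide, had 4 mock loops of 3 or 4 PETs. They led to the region just upstream of the gene (4 PETs), to an intergenic anchor 80.6 kb upstream (3 PETs), to AHI1 at 162 kb downstream (3 PETs) and to an anchor at 19.0 to 24.7 kb inside MYB (4 PETs). The last of these was the single loop of the PDS list, with 3 PETs.

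MYC encodes a transcription factor that drives growth and proliferation, and its promoter G4 is the most studied of the set. The gene spans 127735434 to 127742951 on chromosome 8. Its 4 mock loops had 14 PETs in all, and none was in the PDS list. The strongest, with 5 PETs, joined the anchor over the canonical start (-4.94 to 0.816 kb) to one over the 3′ end (3.32 to 9.84 kb). The 3′ anchor was also joined to CASC11, the neighbouring lncRNA gene upstream, and to PVT1, an oncogenic lncRNA gene 143 kb downstream, with 3 PETs each. The 1 remaining loop, of 3 PETs, lay within CASC11. Among 4934 protein-coding genes with 3 to 5 mock loops, 42.8% had no PDS loop, as MYC did.

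BCL2, which encodes the founding inhibitor of apoptosis, had 3 mock loops with 11 PETs and none after PDS treatment. Of these, 2 came from an anchor of 23.9 kb over the start sites of BCL2 and its neighbour KDSR, a gene of sphingolipid synthesis. That anchor led to a second start-site anchor of KDSR (4 PETs) and to the first part of BCL2 (3 PETs). The third loop, of 4 PETs, joined anchors inside the gene at 39.6 to 46.8 kb and 54.8 to 60.7 kb.
TERT, the catalytic subunit of telomerase, had 2 mock loops of 3 PETs, the lowest count that is listed. From the anchor over the canonical start, one led to the start of the neighbouring gene CLPTM1L at 39.3 kb. The other joined the 3′ part of TERT to TERLR1 at 87.4 kb. PDGFA, the A chain of platelet-derived growth factor, had 2 mock loops with 9 PETs. Its start-proximal anchor, which begins 0.390 kb downstream of the canonical start and therefore leaves out the upstream motif, was joined by 5 PETs to an anchor of 25.6 kb that holds 56 predicted G4 motifs. TERT and PDGFA had no PDS loop. HRAS, a small GTPase of growth factor signalling, had no loop in either list, and the nearest anchor, with 1 mock loop of 3 PETs, lay 10.1 kb from the gene, just outside the window.

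Of the 70 mock loops at the 9 genes, 64 were not in the PDS list, beside 89.0% of all mock loops. The 6 shared loops are 8.57% of the 70 (95% Wilson interval 3.99 to 17.5%) and 54.5% of the 11 in the PDS list (28.0 to 78.7%). If each mock loop had been retained as often as all loops with as many PETs, 9.26 would have been shared. SRC had 4 of the 6, and HIF1A and MYB had 1 each. All 6 had fewer PETs after PDS treatment, with 12 and 4, 10 and 9, 9 and 3, and 5 and 4 at SRC, 5 and 3 at HIF1A, and 4 and 3 at MYB. The PETs of all listed loops had a PDS/mock ratio of 0.263. The share with fewer PETs among all loops found in both lists was not computed, so the decrease cannot be called particular to these 6. None of the 36 mock loops with 3 PETs was shared, and 5.97% of all mock loops with 3 PETs were, so that a count of 0 is near this background. The longest shared loop was 22.6 kb, beside a median of 17.4 kb for all mock loops, and the lengths of all loops found in both lists were not computed. Of the 70 mock loops, 20 (28.6%, 19.3 to 40.1%) were over 100 kb, beside 12.8% of all mock loops. In the PDS list 2 of 11 were (18.2%, 5.14 to 47.7%), beside 12.2% of all PDS loops, and the intervals of the 2 lists at these genes overlap.

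A predicted G4 motif was present in at least 1 anchor of 62 of the 70 mock loops (88.6%, 79.0 to 94.1%), beside 75.2% of all mock loops, and in both anchors of 46 (65.7%, 54.0 to 75.8%), beside 32.7%. The anchors were also wider, with a median summed width of 21.2 kb beside 15.4 kb, and its part in the difference was not tested. Because the genes were chosen for promoter G4s, an excess of motifs in anchors over their start sites was in part built into the choice. Many loops also share an anchor, as 12 mock loops share the VEGFA start-site anchor with its 18 motifs. They are not independent, and these intervals are too narrow for that reason. All 6 shared loops had a motif in at least 1 anchor, and so did all 11 PDS loops (100%, 74.1 to 100%). Of all PDS loops, 75.5% had one, a share within that interval. The same share among all loops found in both lists was not computed. The 8 mock loops with no motif in either anchor were all absent from the PDS list, and 6 of the 62 with a motif were in it. With 6 shared loops in all, a difference between loops with and without a motif was not detectable.

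The 85 related genes of these pathways, taken from lists of family members, receptors, regulators and other genes with studied promoter G4s, had 641 mock loops and 175 PDS loops, a ratio of 0.273 (0.231 to 0.323). Of them, 71 had a mock loop, 70 had fewer loops after PDS treatment, 2 had more, 1 had as many, and 12 had none.
The BCL2 family had the lowest ratio, 0.149 (0.0841 to 0.266), from 87 mock loops and 13 PDS loops, with fewer at 11 of 12 genes and no loop at PMAIP1. BCL2L1, the gene of the antiapoptotic protein BCL-xL, had 17 mock loops with 66 PETs and no PDS loop. BOK, a proapoptotic member, had 14 and 3. The other genes with studied promoter G4s had a ratio of 0.182 (0.107 to 0.308), with fewer loops at 10 of 12 genes. STAT3, a cytokine-activated transcription factor, had 17 and 3 loops, and RB1, the retinoblastoma tumour suppressor, had 13 and 4.
The HIF pathway had a ratio of 0.365 (0.281 to 0.473), from 211 mock loops and 77 PDS loops. EGLN3, a prolyl hydroxylase that marks HIF subunits for degradation, accounted for 132 of the mock loops and 51 of the PDS loops, and PGK1 had none. The VEGF and PDGF ligands and receptors had a ratio of 0.349 (0.195 to 0.623). NRP1 and NRP2, coreceptors of VEGFA, had 16 and 11 mock loops and 2 and 5 PDS loops, PDGFD and PDGFRB had PDS loops alone (1 and 2), and the endothelial receptor genes FLT1 and KDR, as well as PDGFRA, VEGFC and VEGFD, had no loop in either list.
The RAS, RAF and SRC family kinase list had a ratio of 0.248 (0.170 to 0.362). SOS1, an exchange factor that activates RAS proteins, had 43 mock loops and 13 PDS loops, NRAS had 1 loop of 6 PETs in each list, the same loop, and ARAF had none. The MYC and MYB family had a ratio of 0.250 (0.117 to 0.533), led by MYBL2 with 11 and 2 loops. The telomere list had a ratio of 0.271 (0.148 to 0.495), led by TINF2, a shelterin component with 15 and 6 loops, and DKC1 and POT1 had none. The intervals of these lists overlap each other, other than those of the BCL2 family and the HIF pathway, and without EGLN3 the HIF pathway had 79 mock loops and 26 PDS loops, a ratio of 0.329 (0.212 to 0.511) whose interval overlaps that of the BCL2 family too. Of the genes named with no loop, PGK1, VEGFD, ARAF and DKC1 lie on chromosome X. That whole chromosome had 75 mock loops, or 0.481 per Mb, so a lack of loops there is not particular to these genes.

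The label of the cells was checked against genes of hepatocytes. HNF4A, ALB, SERPINA1 and APOA1 had 39, 15, 11 and 4 mock loops, while the leukocyte gene PTPRC and the erythroid gene HBB had none. All 4 hepatocyte genes also had fewer PDS loops, from 1 to 9. The PETs of listed loops summed to 254647 and 67001, and loops with the minimum of 3 PETs made up 59.9% and 71.1% of the lists. Relative to these sums, the PETs at the 8 oncogenes with loops were lower in the PDS list at every gene, as at 64.0% of protein-coding genes with a loop in either list, and at SRC and HIF1A the values were close. Scaled to 1000000 listed PETs, SRC had 542 in the mock list and 478 in the PDS list, HIF1A 110 and 89.6, MYB 78.5 and 44.8, and VEGFA 259 and 44.8. The depth of the libraries was not used here, and its part in the lower counts after PDS treatment was not tested.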

How the data were processed

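POLR2A HiChIP-seq libraries were prepared from HepG2 cells after mock or PDS treatment, 4 libraries in all. The authors digested the chromatin with MboI and, per the labels, processed the reads with HiC-Pro version 3.1.0 on GRCh38. For each condition they deposited a combined list of loops, in which the last column holds raw counts of PETs per loop with no scaling. The tool that called the loops and the way the replicates were combined are not given in the sources used here.

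Loops were matched between lists when both anchors overlapped by at least 1 bp (anchors within and between lists are either identical or apart). PDS/mock ratios have 95% intervals, taken as the odds of the Wilson bounds on the share of PDS in both lists together, with scipy 1.17.1. Motifs were searched on both strands of the reference with pysam 0.24.0. Distances are between anchor midpoints. Scripts ran in Python 3.11.15 with pandas 2.3.3, numpy 2.4.6, matplotlib 3.10.9 and samtools 1.23.1. Loop assignment, motif search and intervals were tested on simulated data.

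The genes, lists and measures were chosen with earlier results of these data known. Named beyond the 9 genes were the genes with a start site in the partner anchor of a start-site loop, and in each related list the genes with most PETs per condition and those with no loop. Some related and cell type genes are not reported here. Genes named in other anchors, the genes with more or as many loops after PDS, and the cell type genes were named after their values were seen. Alternatives covered the PET minimum, distances, windows, transcripts, PETs in place of loops, overlap rules and motif definitions.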

Additional observations from a re-analysis of the deposited data

How the results depend on the processing

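Of 83 values recomputed under 19 alternative settings, 73 stayed within the interval of the reported ratio or within 1.5 times the reported count, 10 moved and none reversed. Some of the 73 could not have moved. MYC, BCL2, TERT and PDGFA had no PDS loop, so settings that only remove loops had to return a ratio of 0 again. The rule of identical anchors had to return the reported count, since anchors are either identical or apart. The ratio at the 9 genes ran from 0.0976 to 0.175 and that at their start sites from 0.0833 to 0.180, all within the reported intervals. The exclusions of SRC and VEGFA together and of EGLN3 were chosen after seeing the data. With at least 4 PETs, 3 loops were in both lists, and with at least 5 PETs, 1 loop was in both lists and 5 of the 9 genes had fewer loops after PDS, since few loops remain at those minima. With the anchors extended by 5 kb, 13 mock loops had a counterpart in the PDS list. Single genes moved in 6 of 44 cases, to a ratio of 0 in each (VEGFA at 4 or more and 5 or more PETs and for loops of 5 to 200 kb, HIF1A at both minima, and MYB at 4 or more). With 50 kb on either side the ratio at VEGFA was 0.250, beside 0.0625 as reported and inside its wide interval. No gene's ratio exceeded 0.357. With 50 kb on either side, HRAS also had fewer loops after PDS, which made 9 of 9. No paired analysis was possible because the 2 replicates of each condition were combined into 1 list, and for the same reason no replicate could be left out. Most loops at these genes have 3 or 4 PETs, which limits what can be said of any single loop.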
